A study of Mus musculus with 6 samples.

Results

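Genes of the matrix metalloproteinases (MMPs), of the ADAM and ADAMTS proteases and of their tissue inhibitors (TIMPs) were measured by RNA sequencing in contused spinal cord. Genes were taken by name, as those whose symbol begins with Mmp, Timp, Adam, Adamts or Adamtsl followed by a digit. Of 74 such genes in the deposited table, Mmp8 and Mmp9 were left out by rule and 9 had a mean below 10 counts over the 6 libraries, which left 63 of the 37475 genes listed. Just outside that limit stood Adam28, with a mean of 4.67 counts, and just inside it stood Mmp10 and Adam18, with means of 19.5 and 20.2 counts. All 63 genes passed the filter on low counts and were tested.

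The cords came from wild-type mice that had all received a contusion, a blunt impact, at the T10 level, and were taken 3 days later. One group of 3 mice was given phosphate-buffered saline (PBS), the vehicle, by daily intraperitoneal injection. The other group of 3 was given syringin, a phenylpropanoid glucoside found in plants, at 50 mg/kg a day by the same route. Age and sex are not stated in the sources used here, and no uninjured cord was analysed here, so every value compares injured animals with injured animals. The labels call the 3 libraries of a group biological replicates.

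MMPs are zinc-dependent enzymes that cut matrix proteins, growth factors and cell surface receptors, and most are made as inactive precursors. ADAMs are membrane proteins that mostly shed the outer part of other membrane proteins, while secreted ADAMTS enzymes cut proteoglycans and process procollagens. TIMPs are small secreted proteins that block the catalytic site of MMPs and of some ADAM and ADAMTS enzymes. After injury of the cord such enzymes are made by invading leukocytes, glia, vessels and fibroblasts, and several ADAMs without a working catalytic site are adhesion receptors of neurons.

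The deposited counts summed to between 65579117 and 78843034 per library, of which the 63 genes took 0.314% to 0.352%. The count 4 was 1.51 times as frequent as the mean of its neighbours 3 and 5, so the counting error may be larger than these totals imply. Markers of sensory ganglion neurons, a cell type outside the cord, summed to 410, 332 and 163 CPM (counts per 1e+06 counts) in PBS library 1 and syringin libraries 1 and 3, against 37.1 to 79.0 CPM in the others. Markers of neurons, astrocytes and oligodendrocytes were present in the libraries, with none at 0 throughout. Without PBS library 3, edgeR's quasi-likelihood test, adjusted by the Benjamini-Hochberg method, called no gene of the whole table (smallest adjusted p 0.0959), with 11 of the 63 genes higher and 7 lower at an unadjusted p under 0.05. DESeq2 without that library called 6 of them higher and 2 lower, where it called 6.43% of all genes tested. In limma-voom without that library none of them was called, with 11 higher and 7 lower at an unadjusted p under 0.05.

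Adam8, a leukocyte ADAM that sheds cell surface proteins, was the gene with the largest called rise under syringin, 2.14-fold. Mmp11, Adamts9 and Adamts4 also rose, and Adam23, an adhesion receptor of neurons, fell. In all, edgeR's test called 4 of the 63 genes higher and 1 lower at an adjusted p under 0.05, and 58 did not pass. Over all 22114 genes tested, 5.01% were called, 1.62% as higher and 3.39% as lower. Counts of calls in the gene lists below stand beside these shares, and the lists were chosen with earlier results of these data known. The median log2 fold change was -0.08 over the 63 genes and 0.01 over all genes tested, with 28 of the 63 above zero and 35 below. In 10 of the 63 every syringin library lay above every PBS library and in 12 the reverse held, 34.9% together, where 30.0% of all genes tested did not overlap (14.7% with syringin above and 15.3% with PBS above).

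**Figure D1:**
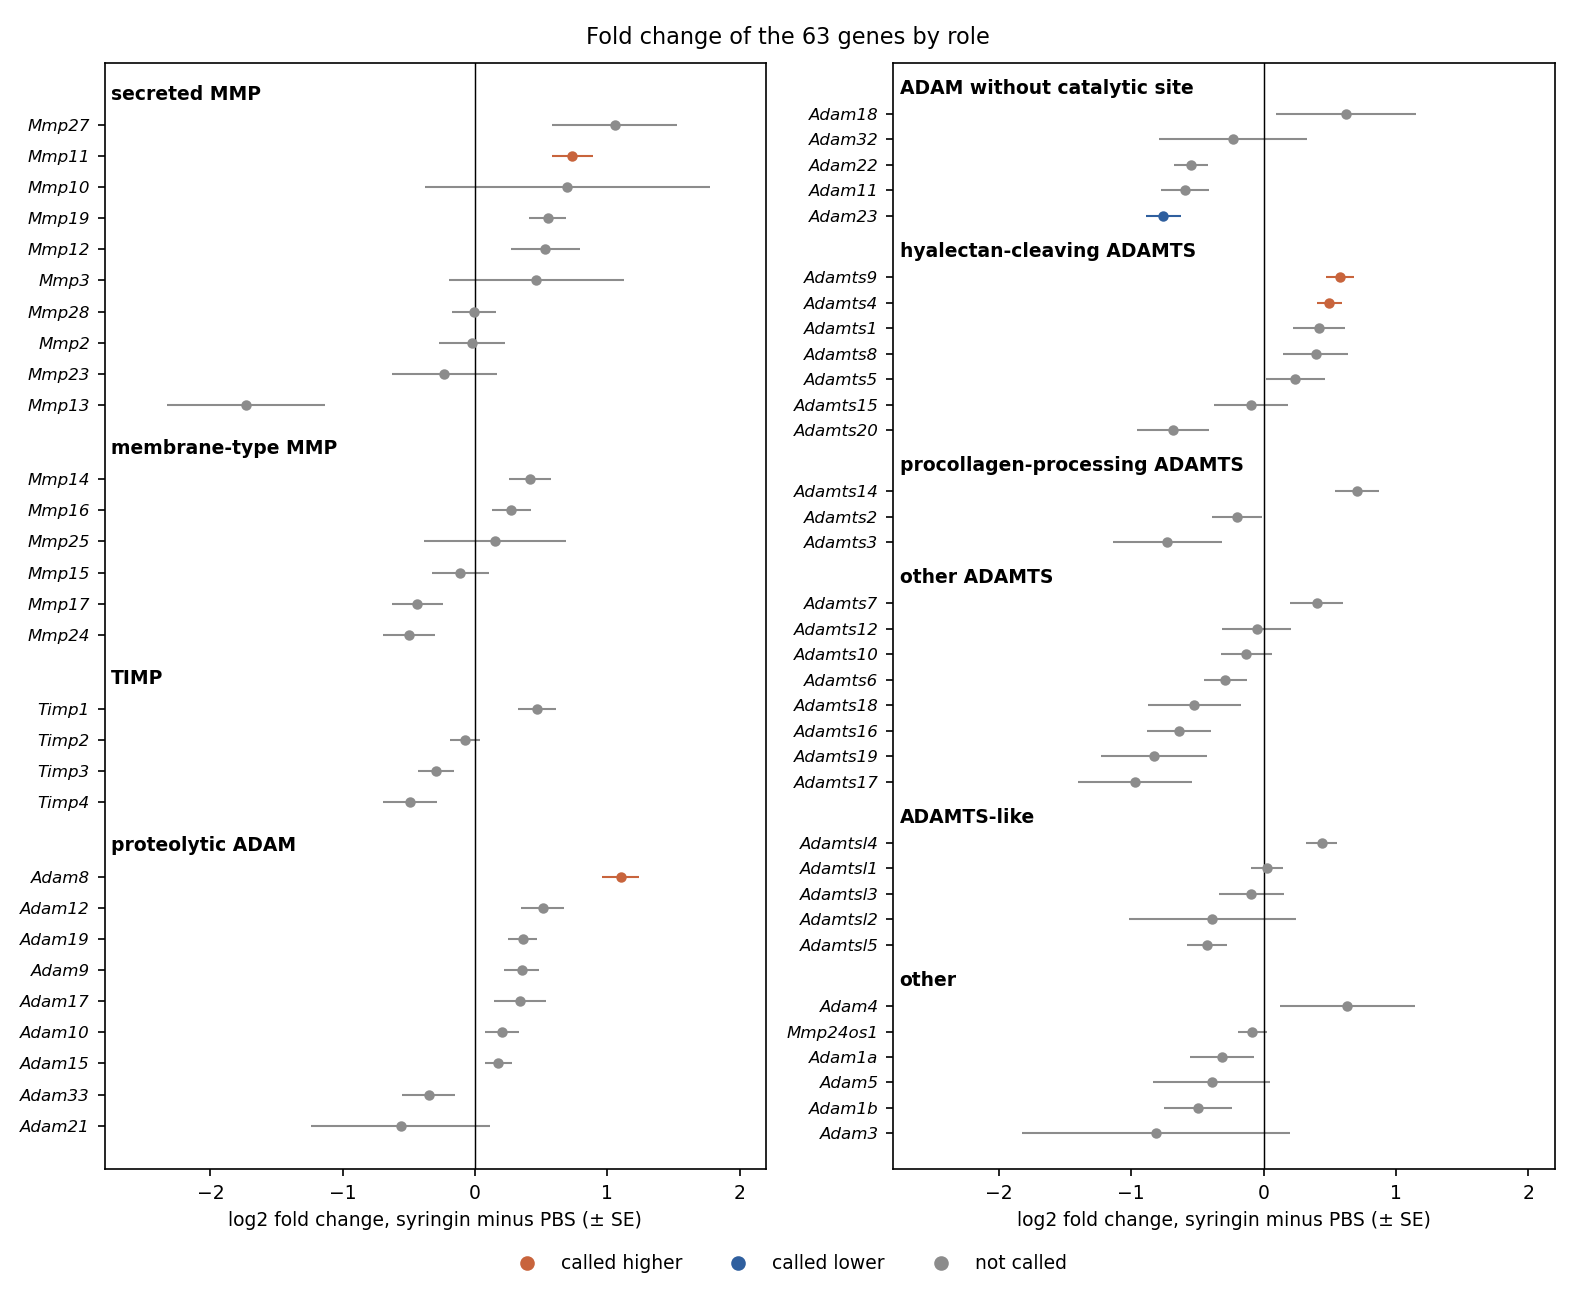
Log2 fold change of each of the 63 genes (x axis, syringin minus PBS, bars are the standard error), grouped by role, with genes called higher in orange, called lower in blue and not called in grey. Adam8 stands at 1.10, Mmp11 at 0.73, Adamts9 at 0.58, Adamts4 at 0.50 and Adam23 at -0.76, and Mmp10 and Adam3 have the widest bars.

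Per transcript length, Timp2 and Timp1 were the most abundant of these genes in PBS. On the scale of deposited FPKM (fragments per kilobase of transcript and 1e+06 fragments), Timp2 averaged 102 ± 4.71 (SD, n = 3) in PBS and Timp1 averaged 85.1 ± 5.28. Timp3 came next at 41.05 ± 6.13 FPKM, not separated beyond its spread from Adam9 (39.7 ± 4.90). The 4 TIMP genes summed to 243 ± 2.16 FPKM in PBS and 254 ± 12.4 FPKM with syringin. The 9 proteolytic ADAMs summed to 153 ± 3.35 FPKM in PBS and 209 ± 20.2 FPKM with syringin. Within them Adam8, at 30.2 ± 1.48 FPKM in PBS, stood beside Adam15 (30.0 ± 1.92), Adam10 (34.1 ± 2.99) and Adam9 (39.7 ± 4.90), and these 4 did not all separate beyond their spread. With syringin Adam8 averaged 63.5 ± 11.2 FPKM, and the next of the proteolytic ADAMs was Adam9 at 49.9 ± 7.55 FPKM. Secreted MMPs were scarce, at 29.1 ± 1.46 FPKM for 10 genes together in PBS and 34.2 ± 4.91 FPKM with syringin. All 63 genes together came to 603 ± 2.70 FPKM in PBS and 684 ± 18.3 FPKM with syringin, which is a description with no test. That total includes Mmp24os1, a gene on the strand opposite Mmp24 that was taken in by its name. Mmp24os1 averaged 25.9 ± 1.33 FPKM in PBS and 24.1 ± 3.31 FPKM with syringin.

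**Figure D2:**
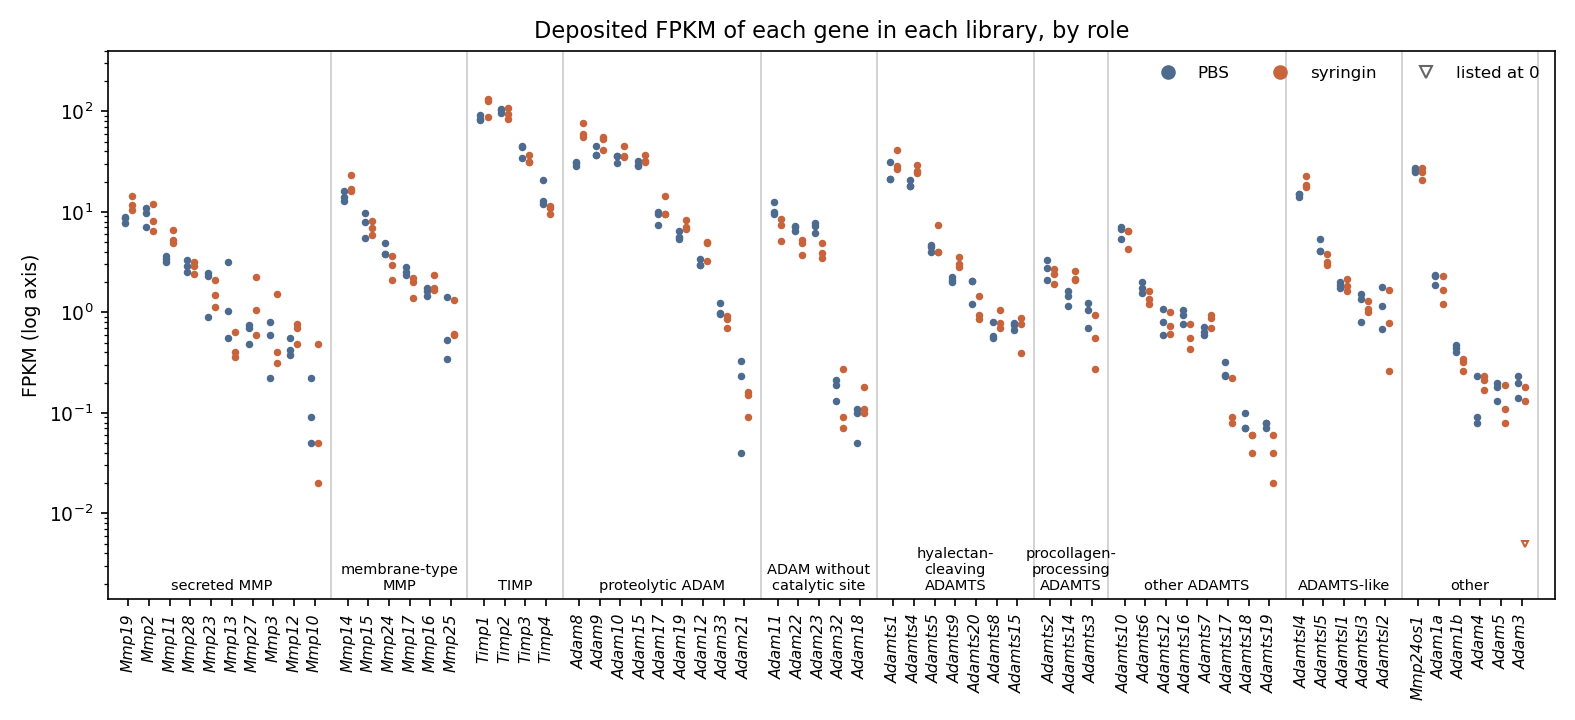
Deposited FPKM (log axis) of each gene in each library, ordered by level within its role, with PBS in blue, syringin in orange and values listed at 0 as open triangles. TIMPs lead at 102 FPKM for Timp2 in PBS, while secreted MMPs, ADAMTS genes of other kinds and the testis-type ADAMs lie mostly near or below 10 FPKM.

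Among the secreted MMPs, 1 of 10 was called higher and none lower, with a median log2 fold change of 0.50. Mmp11, or stromelysin-3, which is activated inside the cell by furin, lies at chr10:75759056-75772330 on the minus strand (ENSMUSG00000000901). These coordinates are as deposited; the submitters' notes name GRCm38 and mm10, but only 4 of the 63 genes start where the GRCm38 annotation places them, so the build is uncertain here and below. Mmp11 measured 9.49, 10.2 and 10.9 CPM in the PBS libraries and 15.4, 20.4 and 15.0 CPM in the syringin libraries. Every syringin library was above every PBS library, and syringin library 2 was the highest. The log2 fold change was 0.73 ± 0.16 (SE), with an adjusted p of 0.0416 in edgeR's test. The call was lost without any 1 of the PBS libraries (adjusted p 0.116, 0.125 and 0.169) and without syringin library 2 or 3 (0.0860 and 0.0752), and it held at 0.0334 without syringin library 1. Mmp11 shares 3367 bases with Chchd10 on the opposite strand, which measured -0.27 ± 0.13 on the log2 scale (adjusted p 0.238). Fibroblast and meningeal markers summed to 1499, 2157 and 2861 CPM with PBS and 1465, 2418 and 1545 CPM with syringin, overlapping, with none of 10 called. Of these 10, 9 measured below zero, with a median log2 fold change of -0.24, and their part in the Mmp11 value was not tested.

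The other secreted MMPs did not pass the test. Mmp19, a broadly acting MMP, measured 32.6, 34.2 and 29.6 CPM with PBS and 39.0, 46.5 and 55.5 CPM with syringin. Its groups did not overlap, and its log2 fold change was 0.55 ± 0.14 at an adjusted p of 0.0628. DESeq2 called Mmp19 higher (adjusted p 0.00745), in a fit that called 14.4% of all genes tested where edgeR's called 5.01%. The gelatinase Mmp2 overlapped between groups, with a log2 fold change of -0.02 ± 0.25 (95% interval -0.60 to 0.55). Mmp12, the macrophage elastase, measured 0.53 ± 0.26 on the log2 scale (adjusted p 0.265), and the stromelysin Mmp3 measured 0.46 ± 0.66 (0.731).

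Mmp13, the main interstitial collagenase of the mouse, had the largest negative estimate of the 63 genes and, within PBS, the least even values. Its PBS libraries measured 9.08, 3.02 and 1.61 CPM and its syringin libraries 1.84, 1.21 and 1.07 CPM. PBS library 1 stood far above the rest, and the groups overlapped. The log2 fold change was -1.73 ± 0.60 (adjusted p 0.133), and with each library left out in turn it lay between -2.14 and -0.75. DESeq2, which called 14.4% of all genes tested, called it lower, at an adjusted p of 0.0160.

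Mmp13, Mmp12, Mmp3, Mmp10 and Mmp27 lie side by side on the plus strand of chromosome 9, between base 7272514 and base 7581416 in the deposited coordinates. Promoters of inducible MMPs are textbook targets of AP-1, the Fos and Jun dimer, whose binding motif is TGANTCA. In RefSeq promoters of GRCm38.p6, 250 bases before to 50 after each start site, 39 of the 63 genes had an entry and 6 of those held this motif, 15.4%, against 8.97% of 27025 symbols. The motif reads the same on both strands, so a match on either counts once. It was present in 4 of the 5 genes of the chromosome 9 cluster and in none of the 4 called genes with an entry, Adam8, Mmp11, Adamts9 and Adam23. The 4 cluster promoters are shown 5′ to 3′ because they share the motif, in capitals, at a similar place. Of their genes, Mmp13 measured below zero and Mmp12, Mmp3 and Mmp10 above, each with overlapping groups, and none was called. Adam19 is shown beside these promoters as an ADAM promoter with the same letters farther from its start site. All 5 windows are of 61 bases on the plus strand of GRCm38.p6.
Mmp13, chr9:7272452-7272512: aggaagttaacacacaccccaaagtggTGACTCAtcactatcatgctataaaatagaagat
Mmp12, chr9:7347303-7347363: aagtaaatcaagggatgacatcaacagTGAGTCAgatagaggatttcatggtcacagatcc
Mmp3, chr9:7445749-7445809: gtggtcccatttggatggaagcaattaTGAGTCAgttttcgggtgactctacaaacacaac
Mmp10, chr9:7502252-7502312: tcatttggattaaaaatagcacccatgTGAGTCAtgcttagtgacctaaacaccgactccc
Adam19, chr11:46055826-46055886: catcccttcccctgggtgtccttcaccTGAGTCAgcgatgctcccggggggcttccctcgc

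The motif's first base lies 35 bases before the start site in Mmp13, 44 in Mmp12, 46 in Mmp3, 63 in Mmp10 and 131 in Adam19. It reads TGACTCA in Mmp13 and TGAGTCA in the other windows. None of the cluster genes was called: beside the values of Mmp13, Mmp12 and Mmp3, Mmp10 measured 0.70 ± 1.08 and Mmp27 1.05 ± 0.47 on the log2 scale (adjusted p 0.753 and 0.226). Mmp10 was at most 0.940 CPM in any library, and its CPM varied by 75.1% of the mean in PBS and 137% with syringin. A motif match describes the letters of the window and not a bound site.

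None of the 6 membrane-type MMPs was called, and their median log2 fold change was 0.02. Mmp14, which activates pro-MMP2 at the cell surface together with TIMP2, measured 89.3, 82.7 and 103 CPM with PBS and 107, 153 and 106 CPM with syringin. Every syringin library lay above the PBS libraries, by a narrow margin in 2 of 3. The log2 fold change was 0.41 ± 0.16 (adjusted p 0.169). Mmp16 measured 0.27 ± 0.15 (0.314) on the same scale. Mmp17, a GPI-anchored MMP, measured -0.44 ± 0.19 (0.217) and Mmp24, an MMP of neurons, -0.50 ± 0.20 (0.180), and in both every PBS library was above every syringin library. Mmp24 shares 637 bases with Mmp24os1, on the opposite strand, which had a log2 fold change of -0.08 ± 0.11.

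No TIMP was called, and the 4 did not point one way: Timp1 measured above zero and the other 3 below, Timp2 so close to zero that it changed sign without the libraries with sensory ganglion transcripts. Timp1, the inducible and secreted inhibitor, measured 77.5, 87.4 and 79.3 CPM with PBS and 125, 87.5 and 125 CPM with syringin. Syringin library 2 was level with the highest PBS library, and the other 2 syringin libraries were well above. The log2 fold change was 0.47 ± 0.14 (adjusted p 0.103). DESeq2, which called 14.4% of all genes tested, called it higher (0.0336). Without PBS library 1 and syringin libraries 1 and 3, the libraries with sensory ganglion transcripts, the estimate was 0.07. Timp4, most abundant in brain and heart, measured 130, 81.7 and 76.2 CPM with PBS and 59.1, 71.0 and 75.1 CPM with syringin. Its groups met at 76.2 and 75.1 CPM, and PBS library 1 stood well above the other 5. The log2 fold change was -0.49 ± 0.20 (adjusted p 0.197), -0.21 without PBS library 1 and -0.15 without the 3 libraries with sensory ganglion transcripts. Timp3, which is bound to the matrix and inhibits ADAM17, measured -0.29 ± 0.14 (0.242) and Timp2 -0.08 ± 0.11 (0.739, 95% interval -0.34 to 0.18). Astrocyte markers, which measured below zero as Timp3 and Timp4 did, summed to 8056, 9566 and 9290 CPM with PBS and 5225, 6971 and 7237 CPM with syringin, with 4 of 9 called lower, none higher and none at 0. Their part in the TIMP values was not tested.

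Timp1, Timp3 and Timp4 each lie within a synapsin gene, on its opposite strand. Synapsins coat the vesicles of synapses, so a TIMP gene shares its locus with a neuronal gene. Syn1, around Timp1, averaged 145 ± 9.13 CPM in PBS and 84.7 ± 14.2 CPM with syringin, and fell by 0.78 ± 0.13 on the log2 scale (adjusted p 0.0230). Syn2, around Timp4, averaged 101 ± 8.92 CPM in PBS and 57.6 ± 8.13 CPM with syringin, and fell by 0.81 ± 0.12 (0.0189). Without PBS library 2 or 3 neither synapsin was called (0.0676 to 0.138), nor was Syn1 without PBS library 1 (0.0661). Timp1 thus measured above zero where its host fell, and Timp4 measured below zero with its host. Syn3, around Timp3, averaged 6.97 ± 2.13 CPM in PBS and 4.02 ± 0.981 CPM with syringin and was not called (adjusted p 0.152). The libraries were made with a stranded kit, but the sources used here do not say whether counting used strand. These overlaps are of whole gene spans, and whether exons overlap was not measured. By span, 31 of the 63 genes overlapped another gene and 17 overlapped a gene with a mean of 100 counts or more.

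Of the 9 proteolytic ADAMs, 1 was called higher and none lower, with a median log2 fold change of 0.34. Adam8 (ENSMUSG00000025473) lies at chr7:139558845-139572475 on the minus strand. It measured 157, 153 and 143 CPM in the PBS libraries and 273, 395 and 302 CPM in the syringin libraries. The lowest syringin library was far above the highest PBS library, and the PBS libraries lay close together. The means were 151 ± 7.34 CPM (SD, n = 3) and 323 ± 63.6 CPM, and the log2 fold change was 1.10 ± 0.14 (SE, 95% interval 0.77 to 1.42), with an adjusted p of 0.0129 in edgeR's test. With each library left out in turn the estimate lay between 0.93 and 1.20. The adjusted p was 0.0525 without PBS library 2 and 0.106 without PBS library 3, and it held under 0.05 without any 1 of the others (0.00752 to 0.0455).

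Markers of infiltrating macrophages moved the same way as Adam8. The list of 10, among them F10, Clec4d, Arg1 and Thbs1, summed to 2117, 2072 and 2676 CPM with PBS and 3122, 4395 and 3418 CPM with syringin, with 4 called higher, none lower and none at 0. Its highest library, syringin library 2, was also the highest for Adam8. To the sum of that library Fn1 gave 1802.5 CPM and Thbs1 1754 CPM. Among the other markers F10, Ccr2, Ly6c2, Ms4a7 and Vcan were also highest in syringin library 2. Arg1 and Chil3 were highest in syringin library 1, and Clec4d in syringin library 3. Neutrophil markers summed to 82.8, 115 and 70.1 CPM with PBS and 144, 114 and 51.1 CPM with syringin, with none of 6 called. Microglia markers summed to 707, 732 and 843 CPM with PBS and 528, 984 and 753 CPM with syringin, with none of 7 called. Among these 7, 6 measured below zero and 1 above, with a median log2 fold change of -0.67. In bulk tissue, more cells of a type and more RNA per cell cannot be told apart, and the part of macrophage number in the Adam8 result was not tested.

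**Figure D3:**
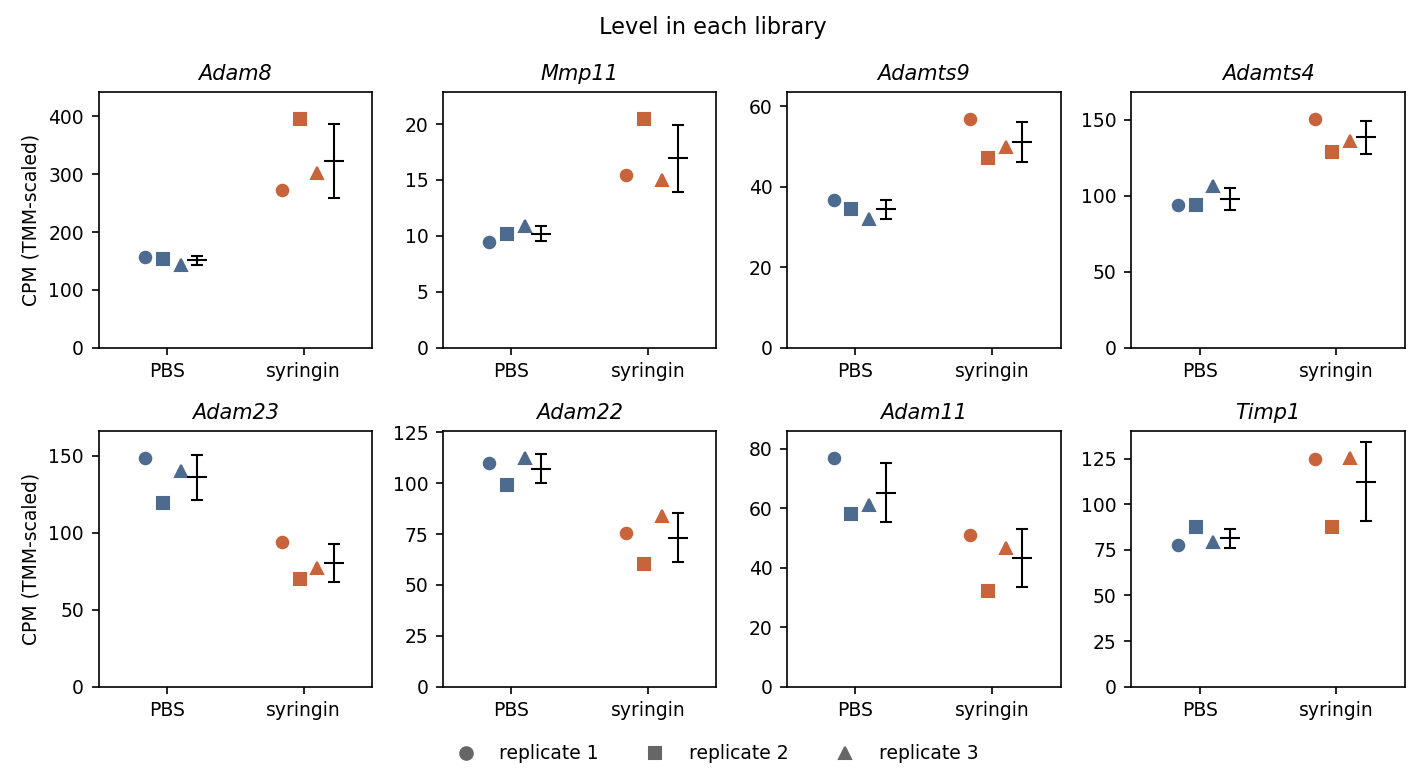
CPM after TMM scaling of 8 genes in each library (circle, square and triangle for replicates 1, 2 and 3), with the mean and SD of each group as a bar beside the points. The 3 syringin libraries lie above the 3 PBS libraries for Adam8 (273 to 395 against 143 to 157 CPM), Mmp11, Adamts9 and Adamts4, below them for Adam23, Adam22 and Adam11, and touch them for Timp1.

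The sheddases that most cells use were measured at small differences. Adam17, which releases TNF and ligands of the EGF receptor, measured 57.0, 76.5 and 73.3 CPM with PBS and 71.9, 114 and 75.4 CPM with syringin. These groups overlapped, and the log2 fold change was 0.34 ± 0.19 (adjusted p 0.341, 95% interval -0.11 to 0.79). Adam10, the main sheddase of Notch receptors and of the amyloid precursor protein, measured 0.20 ± 0.13 (0.384), with an interval of -0.09 to 0.50 that leaves out a doubling. Adam9 measured 0.35 ± 0.13 (0.162) and Adam15 0.18 ± 0.10 (0.352). Adam12 and Adam19, both known from muscle and connective tissue, measured 0.51 ± 0.16 (0.115) and 0.36 ± 0.11 (0.106), and only Adam19 separated the groups. Adam33 measured -0.35 ± 0.20 and Adam21, near the limit of detection, -0.56 ± 0.68.

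Of the genes that fold, carry and hold ADAM10 and ADAM17, 12 were tested, 2 were called higher and 1 lower. These were 16.7% and 8.33%, beside 1.62% and 3.39% of all genes tested. Rhbdf2, which encodes iRhom2, the escort of ADAM17 in myeloid cells, measured 16.9, 20.2 and 17.9 CPM with PBS and 24.4, 31.4 and 29.5 CPM with syringin. Every syringin library was above every PBS library, and it rose by 0.63 ± 0.13 on the log2 scale (adjusted p 0.0400). Frmd8, which encodes the iRhom-binding protein iTAP, measured 140, 159 and 140 CPM with PBS and 228, 202 and 239 CPM with syringin, a clear separation, and rose by 0.61 ± 0.10 (0.0220). Sfrp1, a secreted Wnt antagonist that also inhibits ADAM10, fell by 0.84 ± 0.16 (0.0302). Each of the 3 lost its call without PBS library 1, 2 or 3 and without syringin library 3, at adjusted p-values from 0.0569 to 0.188, as did Rhbdf2 and Sfrp1 without syringin library 2 (0.0937 and 0.0689). Rhbdf1, the related escort outside the myeloid lineage, measured 0.15 ± 0.12 and was not called.

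The listed substrates of these sheddases were called higher in 2 of 32 (6.25%) and lower in 1 (3.12%), beside 1.62% and 3.39% of all genes tested. Cd44, the hyaluronan receptor, measured 184, 185 and 148 CPM with PBS and 322, 294 and 303 CPM with syringin, with no overlap, and rose by 0.83 ± 0.11 on the log2 scale (adjusted p 0.0139). Tgfa, a ligand of the EGF receptor, averaged 96.1 ± 14.4 CPM with PBS and 159 ± 17.3 CPM with syringin and rose by 0.72 ± 0.13 (0.0270). Cx3cl1, the membrane chemokine of neurons, averaged 90.4 ± 16.5 CPM with PBS and 50.4 ± 7.68 CPM with syringin and fell by 0.84 ± 0.16 (0.0334). Without PBS library 3 the adjusted p-values were 0.0959, 0.155 and 0.169. Tgfa was also lost without PBS library 1 or syringin library 3 (0.0842 and 0.0819), and Cx3cl1 without PBS library 2, syringin library 2 or syringin library 3 (0.112, 0.0780 and 0.0693). The remaining 29 did not pass, among them Tnf at 1.13 (adjusted p 0.0840), Notch1 at 0.30 (0.0773) and App at 0.06 (0.777) on the log2 scale.

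Of the 5 ADAMs listed here as without a catalytic site, 1 was called lower and none higher, and their median log2 fold change was -0.55. The class was set by gene name, and the catalytic motif was not looked up in protein sequences. Adam11, Adam22 and Adam23 are receptors of neurons for secreted LGI proteins, and ADAM22 with LGI1 ties potassium channels and AMPA receptors into the synapse and axon membrane. Adam23 (ENSMUSG00000025964, chr1:63485050-63635435, plus strand) measured 148, 120 and 140 CPM with PBS and 93.9, 70.0 and 77.3 CPM with syringin. No syringin library reached the lowest PBS library. The means were 136 ± 14.9 and 80.4 ± 12.2 CPM (SD, n = 3), and it fell by 0.76 ± 0.13 on the log2 scale (SE, adjusted p 0.0245 in edgeR's test). The call held without syringin library 1 (0.0107) and was lost without any 1 of the other 5 libraries (0.0551 to 0.142).

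Adam22 and Adam11 were lower in every syringin library than in every PBS library but missed the threshold in edgeR's test. DESeq2, which called 14.4% of all genes tested, called both lower (adjusted p 0.00384 and 0.0237). Adam22 measured 110, 99.3 and 112 CPM with PBS and 75.7, 60.2 and 84.1 CPM with syringin, a log2 fold change of -0.55 ± 0.13 (adjusted p 0.0529). Adam11 measured 76.7, 57.9 and 61.1 CPM with PBS and 51.0, 32.3 and 46.5 CPM with syringin, a log2 fold change of -0.59 ± 0.18 (0.103). Syringin library 2 was the lowest of the 6 for all 3 receptors. Adam18 and Adam32, known from sperm, stayed under 1 CPM in every library and overlapped between groups.

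Of the LGI ligands and partners of these receptors, 6 of 11 were called lower (54.5%, beside 3.39% of all genes tested) and none higher. Their median log2 fold change was -0.64, and the list was chosen with earlier results of these data known. Lgi1, the ligand of ADAM22 and ADAM23, measured 57.3, 57.7 and 71.0 CPM with PBS and 27.7, 39.1 and 40.0 CPM with syringin, and fell by 0.80 ± 0.16 (adjusted p 0.0361). Lgi2 measured 98.7, 91.7 and 99.1 CPM with PBS and 51.5, 40.2 and 38.5 CPM with syringin, and fell by 1.15 ± 0.12 (0.0114). Neither gene had a syringin library within its PBS range. The axonal potassium channel Kcna2 fell by 1.48 ± 0.14 (0.0101), the AMPA receptor auxiliary subunit Cacng2 by 1.44 ± 0.15 (0.0102), and the scaffolds Dlg2 and Dlg4 by 0.84 ± 0.13 (0.0189) and 0.64 ± 0.11 (0.0249). Lgi4, the glial ligand that acts through ADAM22 in peripheral nerve, measured -0.13 (0.442). Without PBS library 3 none of the 6 was called (adjusted p 0.0959 to 0.173), while Lgi2, Kcna2 and Cacng2 kept their calls without any 1 of the other libraries. Lgi1 held only without syringin library 1 (0.0644 to 0.0925 without the rest), Dlg2 was also lost without PBS library 2 or syringin library 3 (0.0656 and 0.0605), and Dlg4 without PBS library 1 or 2 or syringin library 3 (0.0584 to 0.0768).

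Neuron markers in the same libraries moved in the same direction. The 10 of them summed to 2583, 2143 and 2618 CPM with PBS and 1525, 1075 and 1358 CPM with syringin, with 6 called lower, none higher and none at 0, and a median log2 fold change of -0.81. Syringin library 2 was the lowest for this sum as for Adam23, Adam22 and Adam11. The part of neuron number in the values of these receptors and partners was not tested.

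**Figure D4:**
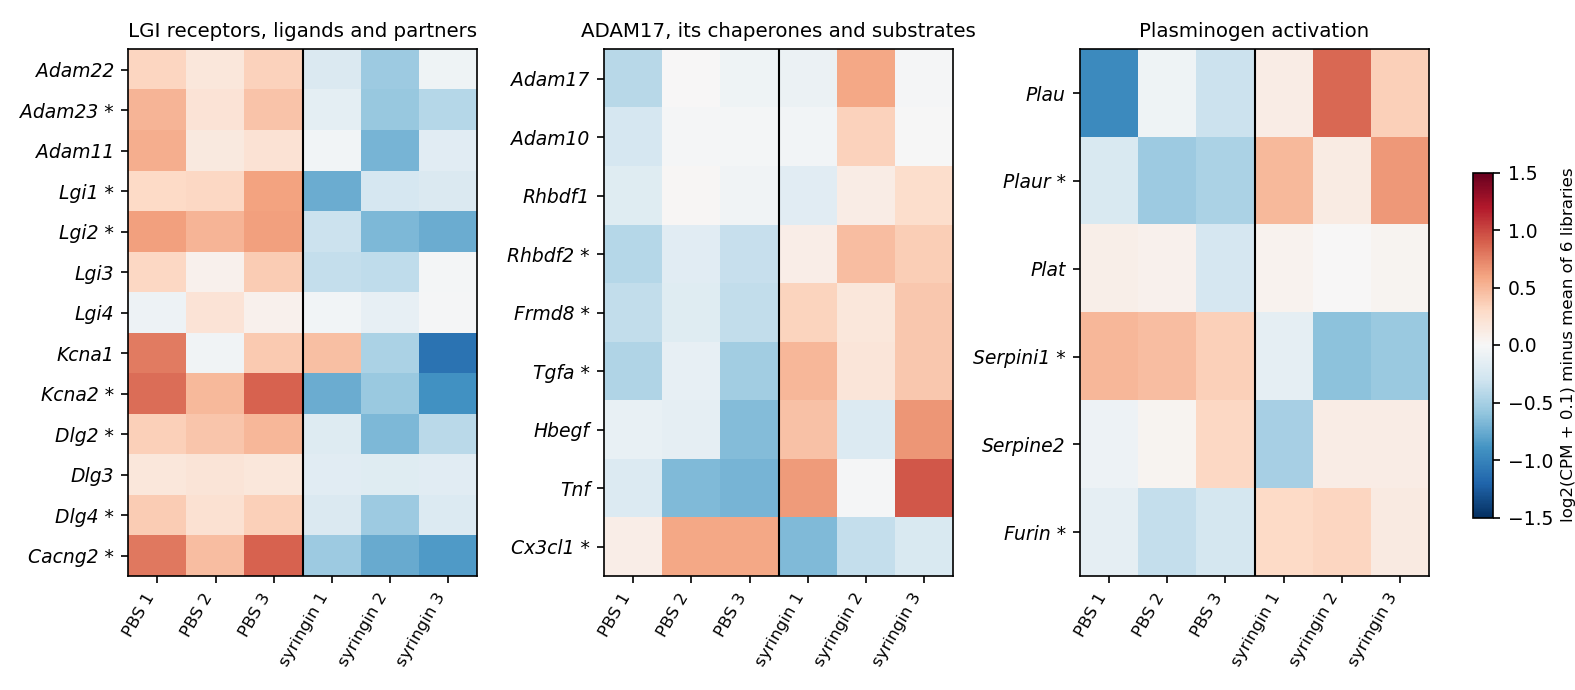
Log2(CPM + 0.1) minus the mean of the 6 libraries for LGI receptors with their ligands and partners (left), ADAM17 and ADAM10 with chaperones and substrates (middle) and genes of plasminogen activation (right), with red above and blue below the mean and an asterisk for called genes. The left panel turns from red in the 3 PBS libraries to blue in the 3 syringin libraries for Adam23, Lgi1, Lgi2, Kcna2 and Cacng2, while Rhbdf2, Frmd8 and Plaur turn from blue to red.

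Among the 7 ADAMTS enzymes that cut hyalectans, the large proteoglycans aggrecan, brevican, neurocan and versican, 2 were called higher and none lower, with a median log2 fold change of 0.39. Adamts4 (ENSMUSG00000006403, chr1:171077990-171088206, plus strand), also called aggrecanase-1, measured 93.7, 94.1 and 106 CPM with PBS and 150, 129 and 136 CPM with syringin. Adamts9 (ENSMUSG00000030022, chr6:92749680-92920473, minus strand), a versicanase, measured 36.7, 34.4 and 32.1 CPM with PBS and 56.8, 47.1 and 49.9 CPM with syringin. For both genes all 3 syringin libraries lay above all 3 PBS libraries, and syringin library 1 was the highest. Adamts4 rose by 0.50 ± 0.10 on the log2 scale (SE, adjusted p 0.0320 in edgeR's test) and Adamts9 by 0.58 ± 0.10 (0.0272). Both calls held without syringin library 1 (0.0390 and 0.0310) and syringin library 2 (0.0492 and 0.0419), and were lost without any 1 of the PBS libraries (0.0625 to 0.158) and without syringin library 3 (0.0785 and 0.0721). In limma on log2(FPKM + 0.1) neither passed (0.0526 and 0.0857).

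Adamts9 shares bases with 3 genes on the opposite strand, of which A730049H05Rik measured 0.13 ± 0.24 and 9530026P05Rik -0.51 ± 0.24. Neither of these was called.

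Adamts1 and Adamts5, neighbours on chromosome 16, did not pass. Adamts1, known from ovary and vessels, measured 177, 122 and 121 CPM with PBS and 235, 159 and 167 CPM with syringin, with overlap and a log2 fold change of 0.42 ± 0.20 (adjusted p 0.247). Library 1 was the highest of each group for this gene. Adamts5, or aggrecanase-2, measured 0.24 ± 0.22 (0.574), and its highest library was syringin library 1 at 84.7 CPM, where the other 5 lay between 46.0 and 54.8 CPM and gave -0.10 without it. The remaining hyalectanases, Adamts8, Adamts15 and Adamts20, measured 0.39 ± 0.25, -0.09 ± 0.28 and -0.68 ± 0.27.

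The hyalectans themselves and other ADAMTS substrates were called lower in 2 of 20 (10%, beside 3.39% of all genes tested) and higher in none. Both were link proteins, which fasten hyalectans to hyaluronan. Hapln4 measured 80.5, 56.5 and 87.8 CPM with PBS and 23.1, 27.9 and 32.5 CPM with syringin, with no overlap, and fell by 1.43 ± 0.19 (adjusted p 0.0138). Hapln1 was scarce, at 6.11 ± 0.751 CPM with PBS and 1.98 ± 0.669 CPM with syringin, and fell by 1.63 ± 0.29 (0.0249). Without PBS library 3 they measured adjusted p-values of 0.0959 and 0.142, and Hapln1 was also lost without PBS library 1 or 2 or syringin library 3 (0.0531 to 0.0752). Acan, Bcan, Ncan and Vcan measured -0.45, -0.75, -0.14 and 0.30 on the log2 scale, and none passed.

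None of the other 16 ADAMTS and ADAMTS-like genes was called. Adamts14, one of the 3 enzymes that trim procollagens, measured 9.03, 6.54 and 8.06 CPM with PBS and 14.1, 12.3 and 12.2 CPM with syringin. Its groups were well apart, and the log2 fold change was 0.71 ± 0.16 at an adjusted p of 0.0504. DESeq2, which called 14.4% of all genes tested, called Adamts14 higher (adjusted p 0.00131). The other procollagen enzymes, Adamts2 and Adamts3, measured -0.20 ± 0.19 and -0.73 ± 0.41. Of the 8 ADAMTS enzymes of other kinds, 7 were below zero, with a median of -0.41 and a range from -0.97 for Adamts17 to 0.40 for Adamts7. ADAMTS-like proteins lack a protease domain, and among the 5 of them Adamtsl4, a binder of fibrillin, measured 0.44 ± 0.12 (adjusted p 0.0728) with every syringin library above every PBS library.

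MMP precursors are activated by other proteases. Of 17 tested genes of plasminogen activation, proprotein convertases, kallikreins and their inhibitors, 4 were called higher and 1 lower. These were 23.5% and 5.88%, beside 1.62% and 3.39% of all genes tested. Plaur, the receptor of the urokinase plasminogen activator, measured 31.2, 25.0 and 26.2 CPM with PBS and 51.1, 39.9 and 57.4 CPM with syringin, and rose by 0.85 ± 0.15 (adjusted p 0.0269). Every syringin library was above every PBS library for the receptor, while urokinase itself, Plau, measured 0.88 ± 0.26 and did not pass (0.0937). Furin, which activates Mmp11 and the membrane-type MMPs, averaged 92.7 ± 7.22 CPM with PBS and 132 ± 9.30 CPM with syringin, and rose by 0.51 ± 0.10 (0.0302). The kallikrein Klk8 rose by 1.61 ± 0.30 (0.0299), and Serpini1, the neuroserpin of neurons, fell by 0.86 ± 0.14 (0.0211). Without PBS library 3 none of these 4 named genes was called (0.125 to 0.167), and none without PBS library 1 or syringin library 3 (0.0528 to 0.0872). Without PBS library 2 Klk8 alone of the 4 was called (0.0766 to 0.108 for the others), and Furin, Klk8 and Serpini1 were lost without syringin library 2 (0.0505 to 0.0858).

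Inhibitors and inducers of MMPs outside the TIMPs were called higher in 1 of 12 (8.33%) and lower in 3 (25%), beside 1.62% and 3.39% of all genes tested. The 3 were Spock1, Spock2 and Spock3, the testicans, proteoglycans of the brain's matrix of which some modulate the activation of pro-MMP2, and they fell by 0.65 ± 0.13, 0.79 ± 0.13 and 0.78 ± 0.15 (adjusted p 0.0346, 0.0217 and 0.0362). Thbs1, a matricellular protein that also counts among the macrophage markers used here, averaged 572 ± 153 CPM with PBS and 1331 ± 393 CPM with syringin and rose by 1.22 ± 0.26 (0.0410). Reck, a membrane-anchored MMP inhibitor, measured 16.4, 17.7 and 18.7 CPM with PBS and 14.7, 16.6 and 12.6 CPM with syringin, overlapping, at -0.27 ± 0.14 (0.291). Without any 1 of the PBS libraries none of these 4 called genes passed (0.0653 to 0.181). Of the 4, Spock2 alone held without syringin library 2, and Spock3 alone without syringin library 3 (0.0558 to 0.0982 for the others).

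Of 26 matrix and junction proteins that MMPs cut, 1 was called higher (3.85%, beside 1.62% of all genes tested) and none lower. It was Tnc, the matrix protein tenascin-C, which measured 151, 162 and 196 CPM with PBS and 280, 297 and 372 CPM with syringin and rose by 0.90 ± 0.14 (adjusted p 0.0205), with no call without any 1 of the PBS libraries (0.0628 to 0.0959) or syringin library 3 (0.0546). The collagens Col1a1, Col3a1, Col4a1 and Col4a2 measured -0.13, -0.13, 0.43 and 0.36 on the log2 scale, and the tight junction gene Cldn5 0.19, none of which passed. Among 14 metalloproteases of other families, such as Bmp1, Ece1 and Mme, none was called.

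Markers of Schwann cells and peripheral myelin divided the groups, at 1219, 2918 and 2253 CPM with PBS and 781, 1070 and 936 CPM with syringin. Of these 7 genes 2 were called lower and none higher, with a median log2 fold change of -1.49. Their part in the values of the 63 genes was not tested. The sensory ganglion transcripts did not divide the groups, and the 5 calls were set beside fits that allow for them. With the mean of those markers as a covariate, Adam8 measured 1.11, Mmp11 0.77, Adamts9 0.55, Adamts4 0.49 and Adam23 -0.80, all 5 still called. That fit called 13 of the 63 genes, where it called 11.6% of all genes tested. Without the 3 libraries that carry such transcripts, Adam8, Mmp11, Adamts9, Adamts4 and Adam23 measured 1.42, 0.95, 0.50, 0.36 and -0.89. In this last fit 1 syringin library stood against 2 PBS libraries and was assumed to vary as they do, so its calls rest on that assumption.

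Replicate spread differed among the genes. The CPM of the 63 varied by a median of 15.1% of the mean in PBS and 22.1% with syringin. The least even in PBS were Mmp13, Mmp10 and Mmp25, at 86.9%, 75.1% and 75.0%, and Timp2, Adamtsl4 and Adam8 were among the most even, at 4.36%, 4.78% and 4.86%. The scarce genes Mmp3, Mmp10, Mmp13 and Mmp25 therefore had wide intervals, such as -1.06 to 1.99 on the log2 scale for Mmp3, which takes in a doubling as well as a halving.

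**Figure D5:**
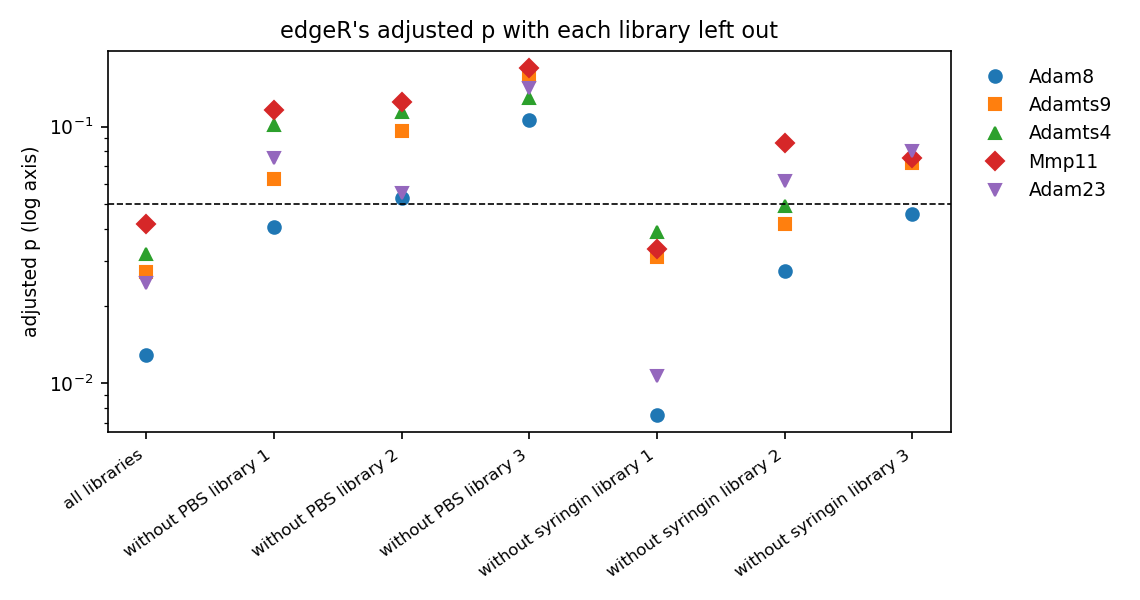
Adjusted p of edgeR's test (log axis) for the 5 called genes with all 6 libraries and with each library left out in turn, with the threshold of 0.05 as a dashed line. With PBS library 3 left out all 5 lie above the line, from 0.106 for Adam8 to 0.169 for Mmp11, and with syringin library 1 left out all 5 lie below it.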

How the data were processed

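Polyadenylated RNA of 6 cords was made into libraries with a stranded TruSeq kit, per the labels' protocols. The submitters' processing notes name HISAT2, StringTie, GRCm38 and mm10, without versions. The authors deposited 1 table with an estimated count and an FPKM per gene and library, per the file headers. These estimated counts were whole numbers, so rounding altered none, and strand use in counting was not stated in the sources used here. No 2 libraries of a group agreed within sampling noise.

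The whole table was fitted with edgeR 4.0.16 (R 4.3.3, TMM factors 0.9655 to 1.029, filterByExpr, robust quasi-likelihood, treatment as the only term), and two-sided p-values were adjusted by Benjamini-Hochberg over 22114 genes. A gene was called at an adjusted p under 0.05. CPM are TMM-scaled counts per 1e+06 counts. Levels were compared between genes only on the FPKM deposited by the authors. limma 3.58.1 and DESeq2 1.42.0 served as alternatives. The common biological coefficient of variation was 24.9%.

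Named genes are the called members, members listed by name and called genes of the related lists, with a few others given as values, and a few results are left out as not reported here. The members and lists were chosen with earlier results of these data known. Other settings are given in the closing section. DESeq2 and limma-voom without PBS library 3 were added after the data were seen.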

Additional observations from a re-analysis of the deposited data

How the results depend on the processing

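With edgeR, 4 of the 63 genes were called higher and 1 lower, 10 and 14 of the related genes, and 359 and 749 of all genes. The 5 called genes kept their direction in all settings tried, while the number of calls changed. Of the members followed through every setting and not called, 4 changed sign in at least 1. Without the libraries with sensory ganglion transcripts, Adamts5 measured -0.029, Mmp2 0.27, Mmp3 -0.36 and Timp2 0.14 on the log2 scale. With each library left out, Adamts5 ranged from -0.10 to 0.38, Mmp2 from -0.31 to 0.17 and Mmp3 from -0.56 to 0.85. Members outside that set changed sign too, such as Mmp10, from -1.53 to 1.49, and Adamts15, from -0.30 to 0.18. Mmp2 also measured 0.050 with the ganglion covariate, and 0.11 in DESeq2 and 0.067 in limma-voom without PBS library 3. RLE, upper-quartile or no composition factors, limma-voom, edgeR without robust estimation and the correction for transcript length kept all 6 counts within 1.5 times. Adamts4 was lost without composition factors (adjusted p 0.0514), and Adamts14 was added as higher with limma-voom and with the length correction. DESeq2 called 10 members higher and 4 lower, 25 and 26 related genes, and 1401 and 1790 of all genes. Beside the 5 called genes, its higher members were Adam12, Adam19, Adamts14, Adamtsl4, Mmp19 and Timp1, and its lower members Adam11, Adam22 and Mmp13. With the sensory ganglion covariate the counts were 7 and 6, 23 and 22, and 1140 and 1435. Without the 3 libraries with sensory ganglion transcripts they were 13 and 8, 30 and 24, and 1758 and 2062. No filter on low counts, a filter at 1 CPM and counts divided by 4 each called 2 members lower, Adam22 being added. In all of them Adamts14 was added as higher. On log2(FPKM + 0.1) limma called 2 members and 211 genes higher, and on log2(FPKM + 1) it called 1 and 215.

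With each library left out in turn, members called higher ranged from 0 to 6 and lower from 0 to 1, related genes from 0 to 19 and from 0 to 15, and all genes from 0 to 813 and from 0 to 1131. Without PBS library 2 edgeR called 0 members, with 12 higher and 6 lower at an unadjusted p under 0.05. Without PBS library 3 it called 0 of any set, and limma-voom, tried after the data were seen, also called 0 and 0 members, 0 and 0 related genes and 0 and 0 of all genes, where 1473 and 2059 had an unadjusted p under 0.05. DESeq2 without that library, also added, called 6 members higher and 2 lower, with all 5 kept, and 545 genes higher. The cause was not tested.

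A fit with the replicate number as a replicate block called 8 members higher and 4 lower, 22 and 23 related genes, and 1062 and 1495 of all genes. Same-numbered libraries correlated at 0.292, 0.123 and 0.0522, and libraries of unlike number at -0.229 to 0.135. Syringin libraries 1 and 3 correlated best with the PBS library of their number, and syringin library 2 with PBS library 3 (0.135). Whether libraries of the same number share a batch was not tested. Mmp3, Mmp10 and Adam3, all scarce, were among several members with standard errors over 0.5 on the log2 scale. Adamtsl2 was another, at 0.63, with 10.4 ± 4.72 CPM in PBS. The part of depth in these errors was not tested.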
